A study of Homo sapiens with 18 samples.

Results

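The comparison described here is what adding 3G3 to PDGF-AA did to transcript levels in Hec-1A, an established human cell line from an endometrial adenocarcinoma. It rests on 6 of the series' 18 bead arrays, 3 labelled PDGF-AA and 3 labelled PDGF-AA + 3G3, chosen by their labels. The other 12 arrays are 3 of Hec-1A under control IgG and 9 of RL95-2, a second endometrial carcinoma line, under the same 3 treatments. The labels give no dose, duration or batch, and do not say that replicates came from separate cultures, so the p-values below reflect the spread of these arrays, which may be technical. No group is labelled as PDGF-AA with control IgG, so an effect of 3G3 and an effect of any added antibody cannot be told apart.

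PDGF-AA is a dimer of A chains of platelet-derived growth factor, and it binds and pairs the receptor tyrosine kinase PDGFRA. The active receptor recruits PI3-kinase, phospholipase C and adaptors that lead to RAS and ERK, and cells that respond soon transcribe immediate early genes such as FOS and EGR1. The labels do not say what 3G3 is. From the series title, which names PDGFRA, it is taken here to be the antibody of that clone name, which binds the extracellular part of human PDGFRA and blocks ligand binding, and its arrays are called antibody arrays on that basis. In endometrial tissue the receptor is best known from stromal cells, and carcinoma lines differ in how much of it they make.

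All levels below are normalized log2 intensities, on which the median of every array is 6.64, so values near that number cannot be told from background. All differences are PDGF-AA + 3G3 minus PDGF-AA on that scale, each between the means of 3 arrays and 3 arrays. The standard error (SE) after each ± comes from a model fitted to all 18 arrays of the series. It pools the spread within groups, including those of the other line and of control IgG. It is therefore not the spread of the printed array values alone. Array values stand in the order of replicates 1, 2 and 3. Signals ran from 66.7 to 22228 before normalization, and precision is limited by having 3 arrays per group. The 75th percentile of signal per array ran from 122.7 on Hec-1A PDGF-AA replicate 1 to 185.9 on Hec-1A control IgG replicate 1. Next lowest was Hec-1A 3G3 replicate 1, at 130.6. In bulk RNA such as this, fewer cells that express a gene and less of its RNA per cell cannot be told apart.

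No transcript passed the test. Of 32070 tested probes, limma's moderated test called 0 at a Benjamini-Hochberg adjusted p below 0.05 (0% called), and the smallest adjusted p was 1. At an unadjusted p below 0.05 there were 1308 probes (4.08%), of which 532 (1.66%) had higher and 776 (2.42%) lower levels with 3G3. Fewer probes thus had such a p than the 1604 that 5% of the tested probes would make. The 2 groups of 3 arrays did not overlap in 2934 probes (9.15%), 1220 of them with higher (3.8%) and 1714 with lower levels (5.34%).

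The intervals show how precisely differences of intensity were measured on this scale. The median size of a difference was 0.054, and the median half-width of a 95% interval was 0.162. The interval lay wholly within a 1.25-fold change for 25062 probes (78.1%), within 1.5-fold for 30975 (96.6%) and within 2-fold for 31851 (99.3%). Precision was lower for bright probes, with a median half-width of 0.135 in the dimmest of 4 equal bins of tested probes and 0.253 in the brightest. These intervals are per probe and not adjusted for the number of probes. No background was subtracted, so for dim probes they do not bound the change in RNA. With background correction by normexp, the median half-width was 0.208 at an offset of 50 and 0.342 at an offset of 16, and the interval lay within 1.25-fold for 62.5% and 6.25% of tested probes and within 2-fold for 99.2% and 98.7%.

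**Figure D1:**
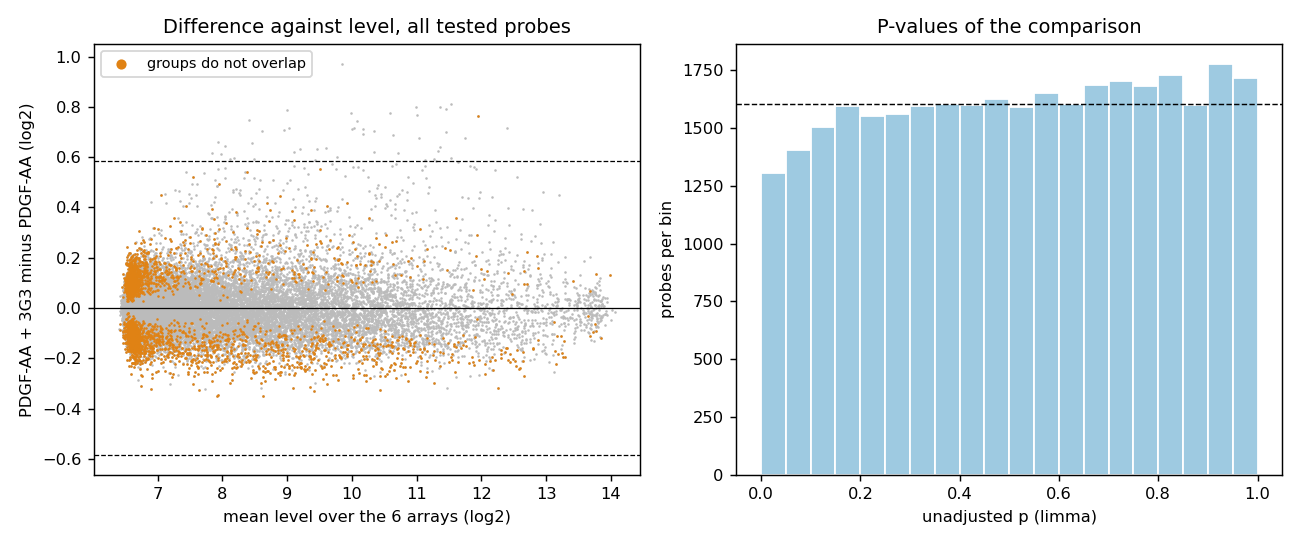
Left, the log2 difference of each tested probe (PDGF-AA + 3G3 minus PDGF-AA in Hec-1A) against its mean log2 level over the 6 arrays, with dashed lines at 1.5-fold and probes whose groups do not overlap in orange. Right, the number of probes per bin of unadjusted p, with a dashed line at an even spread. The differences of 1.5-fold or more are all on the higher side, 46 probes, and the lowest bin holds 1308 probes, below the even line.

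A difference of at least 1.5-fold was measured for 46 probes (0.143%), all higher with 3G3, and in 1 of them the groups did not overlap. Of the 46, 23 carry a gene name and 23 carry none. That probe, which carries no gene name, read 11.23, 11.86 and 11.60 under PDGF-AA and 12.60, 11.88 and 12.50 with 3G3 (difference 0.76 ± 0.21, unadjusted p = 0.00265). At a 1.25-fold cut there were 277 probes (0.864%), of which 271 were higher and 6 lower, and 31 did not overlap.

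UQCRBP1, a pseudogene of a subunit of respiratory complex III on chromosome X, had the largest difference of a named gene. Its levels were 8.67, 10.05 and 9.39 under PDGF-AA and 10.37, 9.20 and 11.44 with 3G3 (0.97 ± 0.65, unadjusted p = 0.157). RPL39, a protein of the large ribosomal subunit, read 10.34, 11.71 and 11.11 against 11.82, 10.99 and 12.72 (0.79 ± 0.55). Both share the same order of arrays, with PDGF-AA replicate 1 lowest and 3G3 replicate 3 highest, while 3G3 replicate 2 lay among the PDGF-AA arrays. UQCRBP1 and its functional parent UQCRB are near-identical in sequence, so their signals may be shared.

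The next 6 named genes by size had the same array order at the extremes. They were MIX23 (0.79 ± 0.48), NDUFB3 of complex I (0.78 ± 0.41), MRPL33 of the mitochondrial ribosome (0.74 ± 0.50), RPL9 of the large ribosomal subunit (0.71 ± 0.37), the small nucleolar RNA host gene SNHG5 (0.71 ± 0.46) and COX7B of complex IV (0.71 ± 0.40). The smallest of their unadjusted p-values was 0.0684, that of RPL9. Another SNHG5 probe differed by 0.33 ± 0.26. Without 3G3 replicate 3 the difference of UQCRBP1 was 0.42, that of RPL39 0.35 and that of NDUFB3 0.42. Without PDGF-AA replicate 1 they were 0.62, 0.43 and 0.52, and without 3G3 replicate 2 they were 1.54, 1.22 and 1.10.

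The first principal component of the 6 arrays followed these genes. It held 48.7% of the variance, and scores were -19.7, 9.1 and -5.6 for the PDGF-AA arrays and 7.6, -12.1 and 20.7 for the 3G3 arrays. The scores of the groups interleave, and their means differed by 10.8 (two-sided exact permutation test, p = 0.5, where the smallest p that 3 against 3 allows is 0.1). The 3 genes of largest weight on it were UQCRBP1, RPL39 and MRPL33. The second component, with 17.3% of the variance, separated the groups completely, at -1.3, 17.2 and -0.1 for PDGF-AA and -3.6, -2.9 and -9.2 with 3G3 (exact p = 0.1). On it 1 array, PDGF-AA replicate 2, stood far from the other 5.

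Correlations between arrays gave the same picture. Pearson's r over tested probes ran from 0.9902 to 0.9953 within a group and from 0.9869 to 0.9964 between groups. The highest r of any pair joined arrays of different groups, 3G3 replicate 2 and PDGF-AA replicate 3. The lowest, 0.9869, joined PDGF-AA replicate 1 and 3G3 replicate 3.

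**Figure D2:**
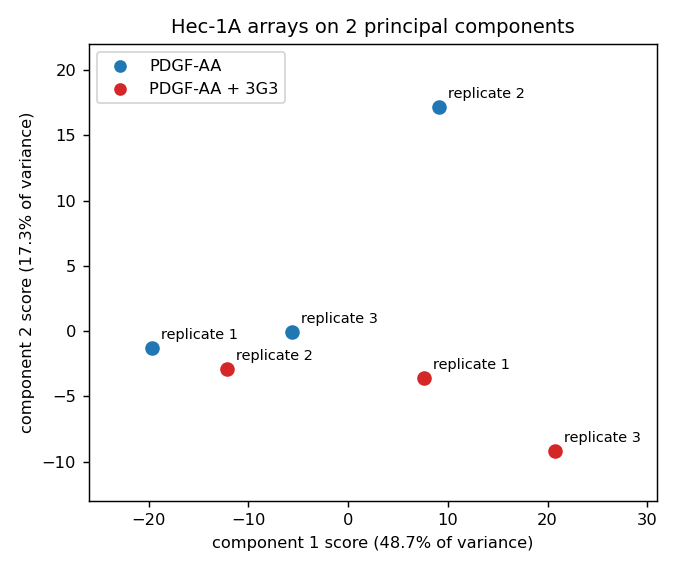
Scores of the 6 Hec-1A arrays on the first and second principal components of the tested probes, PDGF-AA in blue and PDGF-AA + 3G3 in red. On the first component, 48.7% of the variance, the groups interleave from -19.7 to 20.7. On the second, 17.3%, the 3 antibody arrays lie below the 3 PDGF-AA arrays.

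The 2 gene lists closest to these genes had medians near 0, though they hold only some genes of each class, by their brightest probe. RPL39 and RPL9 are not listed, and NDUFB3 enters with 0.55. Of 31 respiratory chain genes encoded in the nucleus, 17 had differences above 0 and 14 below, with a median of 0.013 beside -0.011 over the 15360 genes tested. Of 26 cytosolic ribosomal protein genes, 13 lay above and 13 below 0 (median 0.003). Within the respiratory list COX7B stood at 0.71 and ATP5F1A, a subunit of ATP synthase, at -0.18 ± 0.10, with 13.29, 13.31 and 13.20 under PDGF-AA and 13.12, 13.20 and 12.93 with 3G3.

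The larger differences on the lower side were smaller in size, none of them reaching 1.5-fold, and their groups mostly did not overlap. MEPCE, which caps 7SK RNA, read 8.93, 8.56 and 8.93 under PDGF-AA and 8.55, 8.54 and 8.28 with 3G3 (-0.35 ± 0.17). PLIN5, a lipid droplet protein, read 8.31, 7.88 and 8.07 against 7.86, 7.72 and 7.64 (-0.35 ± 0.13). CDC42BPA, a kinase bound by CDC42, read 7.90, 7.68 and 7.84 against 7.53, 7.56 and 7.35 (-0.33 ± 0.09, unadjusted p = 0.00272). In each of the 3 all antibody arrays were below all PDGF-AA arrays.

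The other 5 of the 8 lowest named genes were the zinc transporter SLC30A7 (-0.33 ± 0.17), the centriole protein STIL (-0.33 ± 0.11), GNPTAB, which tags lysosomal enzymes (-0.32 ± 0.12), MAT2A, which makes S-adenosylmethionine (-0.32 ± 0.17), and the telomere protein TINF2 (-0.32 ± 0.20). Groups overlapped in GNPTAB, MAT2A and TINF2. Without 3G3 replicate 3 the difference of TINF2 was -0.08. TINF2 carried the most negative weight of a named gene on the first component, and its 3G3 arrays spread from 7.97 to 8.98 around PDGF-AA arrays at 8.72 to 8.79.

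For every tested probe of the PDGF ligands and receptors the 95% interval of the difference included 0. Of the 7 genes of the family, 6 passed the filter on dim probes and 0 passed the test. PDGFRA (chromosome 4), the receptor for the A chain, read 6.55, 6.62 and 6.59 under PDGF-AA and 6.66, 6.55 and 6.50 with 3G3, a difference of -0.02 ± 0.06 with a 95% interval from -0.14 to 0.11. These levels lie at the array median, and control IgG arrays read 6.55, 6.54 and 6.58. On all 9 Hec-1A arrays the receptor's transcript was therefore at a level not told from background.

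The second PDGFRA probe and the probe of PDGFRB, the related receptor for B and D chains, stayed under the filter. They read 6.38 to 6.63 and 6.39 to 6.59 over the 9 Hec-1A arrays. PDGFRL, a receptor-like protein without a kinase domain, read 6.97, 7.02 and 7.12 against 6.92, 7.03 and 6.97 (-0.06 ± 0.05).

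Among the ligands PDGFC stood well above background. It read 10.07, 10.29 and 10.03 under PDGF-AA and 10.09, 10.18 and 9.92 with 3G3 (-0.07 ± 0.13, 95% interval -0.35 to 0.21), so the groups overlapped. PDGFB read 7.28, 7.34 and 7.31 against 7.34, 7.27 and 7.29 (-0.01 ± 0.08). PDGFA, the chain that PDGF-AA is made of, read 6.64, 6.64 and 6.70 against 6.68, 6.84 and 6.70 (0.08 ± 0.08), and PDGFD differed by 0.10 ± 0.07. Other probes of PDGFA, PDGFB and PDGFD had differences between -0.08 and 0.01. The lowest was the second PDGFD probe, near background, at 6.58, 6.61 and 6.67 against 6.53, 6.54 and 6.54 (-0.08 ± 0.07), without overlap.

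Of 29 tested genes that process PDGF or carry its signal, 11 had differences above 0 and 18 below, with a median of -0.016, and 0 passed. Among all genes 44.4% had a difference above 0. The smallest p was that of CRKL, an adaptor of tyrosine kinases, at 10.63, 10.58 and 10.69 under PDGF-AA and 10.49, 10.50 and 10.46 with 3G3 (-0.15 ± 0.06, unadjusted p = 0.0342). PTPN1, a phosphatase that acts on receptor tyrosine kinases, read 9.71, 9.72 and 9.78 against 9.63, 9.62 and 9.53 (-0.14 ± 0.08). In both, all antibody arrays lay below all PDGF-AA arrays. PLAT, a protease that activates the PDGFC precursor, differed by 0.07 ± 0.05 and the adaptor GAB2 by -0.08 ± 0.06.

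Immediate early genes, the first transcripts that growth factors induce, held 2 members with an unadjusted p below 0.05, both higher with 3G3, of 24 tested. Over all genes 1.54% had such a p on the higher side and 2.77% on the lower. The list's median was -0.018, with 9 members above 0 and 15 below, and 0 passed. EGR1, a zinc-finger factor on chromosome 5, read 8.80, 9.28 and 9.20 under PDGF-AA and 9.42, 9.26 and 9.57 with 3G3 (0.32 ± 0.10, unadjusted p = 0.00669). The groups overlapped, since 3G3 replicate 2 lay below PDGF-AA replicate 2. Without PDGF-AA replicate 1 the difference was 0.18.

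FOS, which forms AP-1 with JUN proteins, was dimmer. It read 7.20, 7.30 and 7.19 under PDGF-AA and 7.36, 7.44 and 7.44 with 3G3 (0.18 ± 0.06, unadjusted p = 0.00747), and here the groups did not overlap. The AP-1 member FOSL2 read 7.75, 7.73 and 7.79 against 7.53, 7.69 and 7.72 (-0.11 ± 0.08), and SRF, the factor that binds the CArG box, differed by -0.15 ± 0.10. FOSL2 was the member whose antibody arrays all lay below its PDGF-AA arrays.

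Under control IgG EGR1 read 9.47, 9.43 and 9.43, above all 3 PDGF-AA arrays (PDGF-AA minus IgG -0.35) and within the range of the antibody arrays (3G3 minus IgG -0.03). FOS read 7.16, 7.34 and 7.21 under IgG, around the PDGF-AA arrays (0.00) and below all antibody arrays (0.18). The comparisons share arrays, so their differences are not independent of each other. Control IgG replicate 1 stood apart from the other IgG arrays, with 39.6 on the leading residual component of Hec-1A beside -23.4 and -16.2, and without it these differences of EGR1 were -0.34 and -0.01 and those of FOS -0.04 and 0.14.

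EGR1 is a gene whose promoter is a standard example of serum response elements, and it is shown for that reason. The 250 bases before its start on the plus strand of chromosome 5 (chr5:138465229-138465478, RefSeq, GRCh38.p14) are printed 5′ to 3′ with matches to the CArG box in capitals.
EGR1: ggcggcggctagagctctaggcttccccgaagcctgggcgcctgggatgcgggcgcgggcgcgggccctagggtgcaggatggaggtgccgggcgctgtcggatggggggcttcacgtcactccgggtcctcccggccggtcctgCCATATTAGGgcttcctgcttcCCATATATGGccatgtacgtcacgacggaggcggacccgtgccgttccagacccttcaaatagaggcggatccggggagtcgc
The 2 matches begin 105 and 83 bases before the start. A CArG box, searched on both strands, was found in 312 of 27305 such promoters (1.14%) and in 2 of the 17 immediate early genes with an entry, EGR1 and SRF. A match describes letters and not binding.

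Outputs of ERK signalling lay around 0, with 9 of 19 above and 10 below (median -0.003). CCND1, cyclin D1, read 13.26, 13.19 and 13.31 under PDGF-AA and 12.91, 13.23 and 12.85 with 3G3 (-0.26 ± 0.14), with 3G3 replicate 2 among the PDGF-AA arrays. The MAP kinase phosphatases DUSP1 and DUSP4 differed by 0.12 ± 0.08 and 0.11 ± 0.07. SPRED2, an inhibitor of RAS signalling, read 8.63, 8.66 and 8.69 against 8.52, 8.61 and 8.49 (-0.12 ± 0.07), without overlap.

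Of 19 genes of the PI3K, AKT and mTOR pathway, 16 had differences below 0 and 3 above, with a median of -0.057 beside -0.011 for all genes, and 0 passed. The groups did not overlap in 2, both lower, beside 6.28% of all genes. AKT1S1, an AKT substrate in mTOR complex 1, read 7.38, 7.16 and 7.21 under PDGF-AA and 7.18, 7.04 and 6.99 with 3G3 (-0.18 ± 0.08, unadjusted p = 0.0307). The paired inhibitors of mTOR, TSC1 and TSC2, differed by -0.12 ± 0.07 and -0.15 ± 0.08, and PDPK1, the kinase that activates AKT, by -0.16 ± 0.10. Another PDPK1 probe differed by -0.01 ± 0.10. The list's median was -0.018 without normalization between arrays and stayed below 0 under every other alternative run.

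FOXO factors are kept out of the nucleus by AKT, and 24 of their known targets were tested. Differences were above 0 in 13 and below in 11 (median 0.010). BNIP3, a mitophagy receptor that hypoxia also induces, read 11.41, 11.41 and 11.23 under PDGF-AA and 11.82, 11.67 and 11.36 with 3G3 (0.26 ± 0.11, unadjusted p = 0.0273). CCNG2, an atypical cyclin, read 7.43, 7.35 and 7.29 against 7.66, 7.58 and 7.42 (0.20 ± 0.09). In both 3G3 replicate 3 overlapped the PDGF-AA arrays. The insulin receptor INSR differed by 0.13 ± 0.06 and the pseudokinase TRIB1 by -0.19 ± 0.14.

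Other receptor tyrosine kinases were at 9 above and 10 below 0 (median -0.009). AXL, the receptor for GAS6 and a bright transcript in these cells, read 11.93, 11.94 and 11.87 under PDGF-AA and 11.81, 11.72 and 11.54 with 3G3 (-0.22 ± 0.07, unadjusted p = 0.00577). The groups did not overlap. Its control IgG arrays read 12.15, 12.02 and 12.25, above both other groups, so AXL was lower on the PDGF-AA arrays than under IgG (-0.23) and lower again with 3G3. The collagen receptor DDR1 differed by 0.13 ± 0.08.

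Interferon response genes, which cells transcribe when interferon or foreign nucleic acid is sensed, had more members with complete separation on the higher side than any other of the 30 lists. Among 26 tested, all antibody arrays lay above all PDGF-AA arrays in 8 (30.8%), where 3.46% of all genes did. The lists were chosen with earlier results of these data known, so this ranking is not a test. Differences were above 0 in 16 and below in 10, the median was 0.048, and 0 members passed. The 8 were IFIT1, IFIT2, IFIT3, IFI6, IFI44, ISG15, IRF9 and BST2, of which IFIT2, IFI6, ISG15 and IRF9 were chosen for mention after their values were seen. In IFIH1, a sensor of double-stranded RNA, the order was the opposite.

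IFIT1, which binds RNA that lacks a host cap and lies on chromosome 10, read 8.51, 8.59 and 8.53 under PDGF-AA and 8.80, 8.63 and 9.23 with 3G3 (0.35 ± 0.15, unadjusted p = 0.0367). IFIT2, of the same gene cluster, read 8.34, 8.57 and 8.55 against 8.87, 8.63 and 9.21 (0.42 ± 0.21, unadjusted p = 0.063). IFI44 read 7.70, 7.75 and 7.62 against 8.01, 7.83 and 8.30 (0.35 ± 0.14, unadjusted p = 0.0222). In these 3 genes 3G3 replicate 3 was highest and 3G3 replicate 2 lay just above the PDGF-AA arrays. Without 3G3 replicate 3 the differences were 0.17, 0.26 and 0.23.

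IFIT3, a partner of IFIT1, read 7.96, 7.81 and 7.86 against 8.24, 7.96 and 8.02 (0.20 ± 0.09, unadjusted p = 0.0401), with the nearest arrays of the groups equal to the second decimal. IFI6 read 8.32, 7.96 and 8.40 against 8.54, 8.54 and 8.57 (0.32 ± 0.16). ISG15, a ubiquitin-like modifier, read 11.05, 10.58 and 11.04 against 11.11, 11.33 and 11.17 (0.31 ± 0.28). Without PDGF-AA replicate 2, the lowest array of both genes, IFI6 differed by 0.19 and ISG15 by 0.16, and without 3G3 replicate 1 IFIT3 differed by 0.11. IRF9, the DNA-binding part of the interferon-stimulated factor ISGF3, differed by 0.10 ± 0.06. BST2, which tethers virus particles, read 6.56, 6.62 and 6.58 against 6.68, 6.64 and 6.81 (0.12 ± 0.06, unadjusted p = 0.0478), close to background. Here 3G3 replicate 3 did not lead in IFIT3 or ISG15.

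Other members had differences below 0. OAS1, which makes oligoadenylates on sensing double-stranded RNA, read 7.29, 7.36 and 7.14 against 6.95, 7.21 and 7.19 (-0.15 ± 0.10), and IFIH1 read 8.40, 8.45 and 8.41 against 8.15, 8.37 and 8.36 (-0.13 ± 0.09).

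In RL95-2, whose arrays are separate, the same list had 18 of 26 differences above 0 with a median of 0.074, and 6 members did not overlap and were higher, beside 3.52% of all genes. Of these 6, 4 were also among the 8 of Hec-1A, namely IFIT3, IFI6, ISG15 and BST2. IFIT1 differed by 0.26, IFIT2 by 0.32, IFIT3 by 0.20 and IFI44 by 0.16 in RL95-2. No member passed in RL95-2, and none differed between the lines at an adjusted p below 0.05. Levels set the lines apart for BST2, whose RL95-2 arrays lay between 10.81 and 11.09.

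Against control IgG the separated genes fell into unlike patterns. IFIT1 read 9.59, 9.06 and 9.29 under IgG, IFIT2 9.91, 9.01 and 9.13, and IFI44 8.66, 8.13 and 8.07. For all 3 the PDGF-AA arrays were below every IgG array (-0.77, -0.86 and -0.60) and the antibody group's mean lay between the other means (3G3 minus IgG -0.42, -0.45 and -0.24). ISG15, by contrast, read 9.19, 10.73 and 10.67 under IgG, below all antibody arrays (1.00), and IFI6 read 7.52, 8.42 and 8.17 (0.51). For both, control IgG replicate 1 was far below the other IgG arrays. Without that array the differences of 3G3 minus IgG were 0.50 for ISG15 and 0.25 for IFI6, and PDGF-AA minus IgG turned from 0.19 to -0.07 for IFI6 and went from 0.69 to 0.19 for ISG15. For IFIT1, IFIT2 and IFI44 it was then -0.63, -0.58 and -0.41, with 3G3 minus IgG at -0.29, -0.16 and -0.06. The PDGF-AA arrays enter both differences of a gene, so a low PDGF-AA mean lowers the one and raises the other at once.

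**Figure D3:**
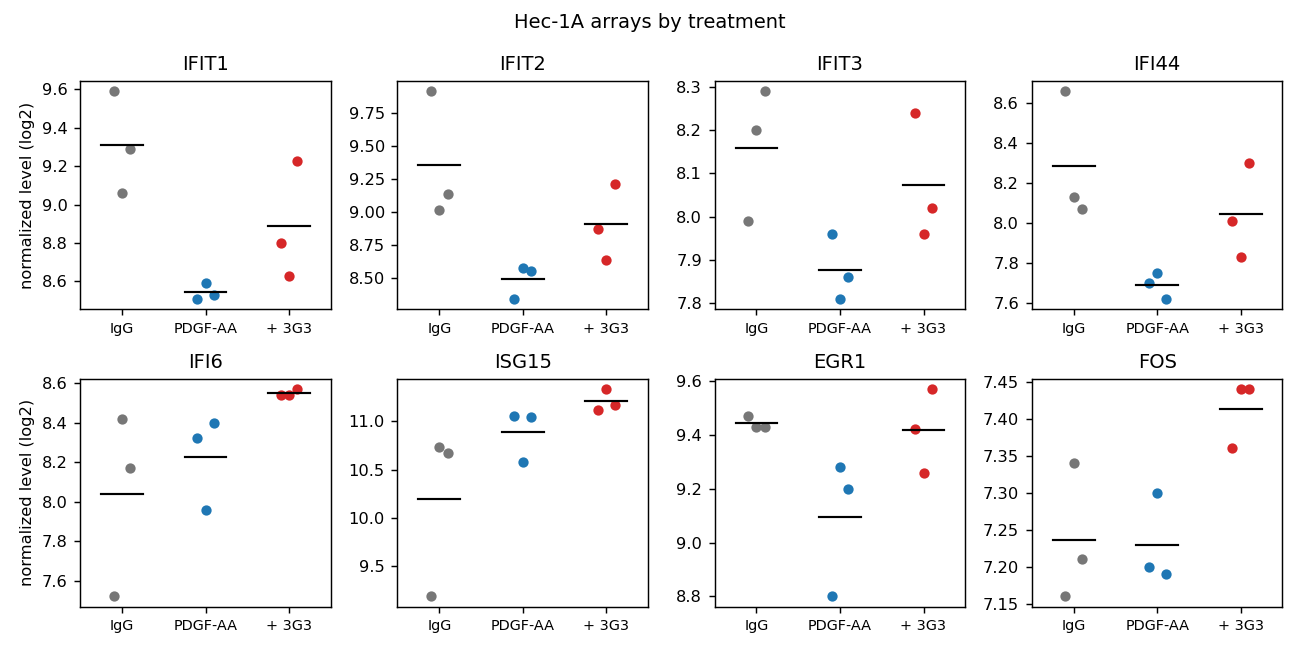
Normalized log2 level of 6 interferon response genes and of EGR1 and FOS on the 9 Hec-1A arrays, by treatment (control IgG, PDGF-AA, PDGF-AA + 3G3), with 1 point per array, bars at the group means and a separate axis range per gene. In IFIT1, IFIT2, IFI44 and EGR1 the PDGF-AA mean is lowest, and in IFI6 and ISG15 the IgG mean is lowest.

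The promoters of the 3 interferon genes of smallest p are shown because they carry the element that ISGF3 is known to bind, the ISRE, here searched as GAAA, any 2 bases and GAAA again, on both strands. Each is 250 bases before the start on the plus strand (RefSeq, GRCh38.p14), printed 5′ to 3′ with matches in capitals, at chr10:89392373-89392622 for IFIT1, chr10:89327747-89327996 for IFIT3 and chr1:78649539-78649788 for IFI44.
IFIT1: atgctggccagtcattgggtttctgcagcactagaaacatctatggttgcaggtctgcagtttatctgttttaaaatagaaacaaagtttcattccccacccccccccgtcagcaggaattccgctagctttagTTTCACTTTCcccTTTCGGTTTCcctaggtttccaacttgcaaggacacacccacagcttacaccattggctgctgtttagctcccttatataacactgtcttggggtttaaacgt
IFIT3: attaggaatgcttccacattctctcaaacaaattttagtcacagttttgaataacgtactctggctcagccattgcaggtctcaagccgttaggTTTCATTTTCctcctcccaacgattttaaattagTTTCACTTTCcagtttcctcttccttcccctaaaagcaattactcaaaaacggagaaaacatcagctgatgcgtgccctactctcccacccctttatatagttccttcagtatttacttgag
IFI44: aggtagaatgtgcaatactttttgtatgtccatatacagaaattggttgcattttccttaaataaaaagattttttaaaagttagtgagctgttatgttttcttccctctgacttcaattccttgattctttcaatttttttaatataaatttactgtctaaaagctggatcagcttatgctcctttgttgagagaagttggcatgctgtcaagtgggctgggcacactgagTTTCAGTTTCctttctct
IFIT1 and IFIT3 hold 2 matches each and IFI44 holds 1. The motif was found in 839 of 27305 promoters (3.07%) and in 15 of the 21 interferon response genes with an entry (71.4%), which include OAS3 and IFIH1, whose means in Hec-1A were lower with 3G3.

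Of 41 cell cycle genes tested, 29 had differences below 0 and 12 above, the median was -0.079, and 0 passed. MCM6 of the replicative helicase read 12.46, 12.46 and 12.33 under PDGF-AA and 12.16, 12.18 and 11.95 with 3G3 (-0.32 ± 0.13, unadjusted p = 0.0268), without overlap. MCM7 of the same helicase read 12.97, 12.95 and 12.80 against 12.70, 12.87 and 12.55 (-0.20 ± 0.09), and BIRC5, survivin, 11.60, 11.42 and 11.39 against 11.20, 11.43 and 11.07 (-0.24 ± 0.11). Without 3G3 replicate 3 MCM7 differed by -0.12. In MCM7 and BIRC5 3G3 replicate 2 lay among the PDGF-AA arrays.

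E2F1, a factor that drives entry into S phase, read 7.13, 7.13 and 6.93 under PDGF-AA and 7.32, 7.09 and 7.34 with 3G3 (0.18 ± 0.08, unadjusted p = 0.0272). At an unadjusted p below 0.05 the list held 3 lower members and 1 higher, beside 2.77% and 1.54% of all genes. Its groups did not overlap in 3 of 41, all lower, beside 6.28% of all genes, which is near the list's own share. The median was -0.046 without PDGF-AA replicate 2 and stayed below 0 under every alternative run.

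Hypoxia response genes had 15 of 20 differences above 0 with a median of 0.069, and 0 passed. Besides BNIP3 the members of smallest p were ADM, a vasodilator peptide, and NDRG1. ADM read 8.11, 7.98 and 8.10 under PDGF-AA and 8.23, 8.45 and 8.25 with 3G3 (0.24 ± 0.11). NDRG1 read 9.55, 9.51 and 9.51 against 10.01, 9.82 and 9.56 (0.27 ± 0.13), and neither gene's groups overlapped. INSIG2, a brake on sterol synthesis, differed by 0.34 ± 0.24 with overlap. Without 3G3 replicate 1 BNIP3 differed by 0.16, NDRG1 by 0.17 and the list's median was 0.016, and in RL95-2 it was -0.019.

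Of 18 glycolysis enzymes 14 had differences above 0 (median 0.041), and these values leaned on 3G3 replicate 1. ALDOC, an aldolase that hypoxia induces, read 8.71, 8.57 and 8.71 under PDGF-AA and 9.59, 8.88 and 8.86 with 3G3 (0.44 ± 0.20, unadjusted p = 0.0381). Without 3G3 replicate 1 its difference was 0.21 and the list's median -0.001. PFKM, a phosphofructokinase, read 9.20, 9.20 and 9.17 against 8.98, 9.04 and 8.87 (-0.23 ± 0.09, unadjusted p = 0.0197), without overlap. ENO2 and ALDOA differed by 0.09 ± 0.07 and 0.19 ± 0.16.

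Among 21 targets of p53, 13 lay above 0 (median 0.017). BAX, which permeabilizes mitochondria in apoptosis, read 7.88, 7.68 and 7.72 under PDGF-AA and 8.13, 7.92 and 8.01 with 3G3 (0.26 ± 0.09, unadjusted p = 0.00875). SFN, the 14-3-3 sigma protein, read 9.95, 9.59 and 9.91 against 10.01, 10.17 and 10.14 (0.29 ± 0.12), or 0.17 without PDGF-AA replicate 2. Groups did not overlap in either, whereas TP53I3 was lower on all antibody arrays by its brightest probe (-0.16 ± 0.08). Another TP53I3 probe differed by 0.04 ± 0.06. In the BCL2 family, 10 of 16 members lay above 0 (median 0.012), and BAK1, the other pore former, differed by 0.26 ± 0.12 with overlap, 0.09 without PDGF-AA replicate 1 and 0.41 without replicate 3.

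Inflammatory targets of NF-kB had 12 of 19 differences above 0 (median 0.032), and all antibody arrays were higher in 3 of 19, beside 3.46% of all genes. CCL20, a chemokine, read 6.63, 6.79 and 6.80 under PDGF-AA and 6.82, 6.92 and 7.13 with 3G3 (0.22 ± 0.09, unadjusted p = 0.0361). CXCL1, a neutrophil chemokine, read 7.02, 6.94 and 6.97 against 7.55, 7.14 and 7.08 (0.28 ± 0.15), and TNF differed by 0.09 ± 0.06. Without 3G3 replicate 1 CXCL1 differed by 0.13, and without 3G3 replicate 3 CCL20 differed by 0.13. All 3 lie near background, TNF at the array median. The inhibitor TNFAIP3 differed by 0.10 ± 0.07.

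Genes of TGF-beta and SMAD signalling were at 7 above and 10 below 0 (median -0.027). PMEPA1, a feedback inhibitor of that pathway, read 10.07, 9.82 and 9.88 under PDGF-AA and 9.73, 9.78 and 9.40 with 3G3 (-0.29 ± 0.11, unadjusted p = 0.0184), without overlap, and differed by -0.17 without 3G3 replicate 3. ID2 differed by -0.14 ± 0.09 and LTBP2 by -0.12 ± 0.09. Mesenchymal markers had 7 of 10 below 0 (median -0.074), at a mean level of 7.64. All antibody arrays lay below all PDGF-AA arrays in 3 of 10, beside 6.28% of all genes, and above them in 1, beside 3.46%. N-cadherin, CDH2, whose groups overlapped, read 7.10, 6.90 and 6.96 against 6.76, 6.91 and 6.80 (-0.16 ± 0.06, unadjusted p = 0.0195). SNAI2, a repressor of E-cadherin, differed by 0.18 ± 0.09 in the other direction.

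Epithelial markers were at 11 above and 10 below 0 (median 0.003) and bright, with a mean level of 9.05 over the list and 14 of 21 members above 8. Leukocyte markers averaged 6.85, with 1 of 10 above 8, CD68, which epithelial cells also express, and endothelial markers averaged 6.68. PTPRC, which marks all leukocytes, read 6.54 to 6.70 on the 6 arrays. The Hec-1A arrays therefore carried epithelial transcripts, while PTPRC lay at background and no tested endothelial marker was above 8. The medians of these last lists were -0.020 and -0.075.

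The remaining lists had medians between -0.056 and 0.062 with 0 members passed in each. Antigen presentation genes had 13 of 18 above 0 (median 0.062), Wnt targets 2 of 11 (-0.056), endoplasmic reticulum stress genes 5 of 18 (-0.029) and heat shock genes 8 of 16 (-0.010). Amino acid response genes had 11 of 22 (0.001), cholesterol synthesis genes 9 of 19 (-0.001), angiogenic factors 8 of 17 (-0.008), fibroblast and smooth muscle markers 4 of 11 (-0.013), and endometrial and hormone response genes 5 of 12 (-0.003). In all, 30 lists were described.

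**Figure D4:**
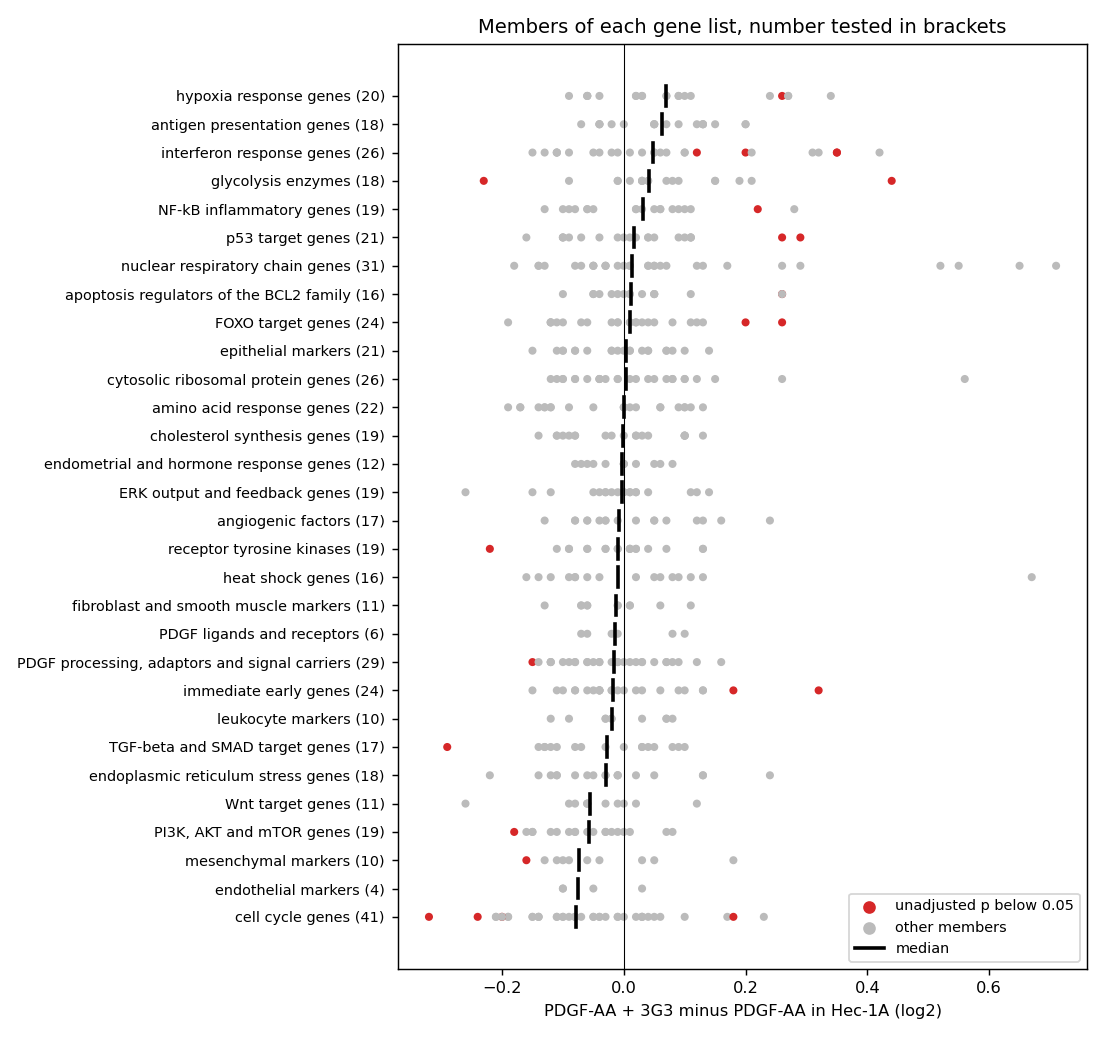
The log2 difference (PDGF-AA + 3G3 minus PDGF-AA in Hec-1A) of every tested member of 30 gene lists, 1 point per gene, with members of unadjusted p below 0.05 in red and a black bar at each list's median. Medians run from -0.079 for cell cycle genes to 0.069 for hypoxia response genes, and most members lie between -0.2 and 0.2.

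The genes of smallest p among those with separated groups were spread over many functions. On the higher side 12 were named by rule, with unadjusted p from 0.000458 to 0.00209. ANAPC2, the cullin of the anaphase-promoting complex on chromosome 9, read 6.61, 6.64 and 6.66 under PDGF-AA and 6.98, 6.82 and 6.91 with 3G3 (0.27 ± 0.06). DALRD3, which takes part in tRNA modification, read 7.15, 7.26 and 7.11 against 7.48, 7.42 and 7.65 (0.34 ± 0.09). ETFDH, which passes electrons from fatty acid oxidation to ubiquinone, was the brightest, at 7.65, 7.93 and 7.80 against 8.16, 7.97 and 8.18 (0.31 ± 0.08).

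ATF4, the factor that drives the amino acid response, read 7.39, 7.43 and 7.26 on the dimmest of its 3 tested probes under PDGF-AA and 7.64, 7.57 and 7.73 with 3G3 (0.28 ± 0.08). Its brighter probes differed by -0.002 ± 0.084 and 0.025 ± 0.157. Its target list gave a median of 0.001, and there SLC7A5, an amino acid carrier, differed by -0.19 ± 0.11 and ASNS, asparagine synthetase, by -0.17 ± 0.14. The other 8 were BRD10 (0.26), the non-coding MIMT1 (0.22), CCDC27 (0.26), the forkhead factor FOXO6 (0.20), SGF29 of histone acetylase complexes (0.22), the p53-regulated gene KLLN (0.22), SPMIP5 (0.32) and the small nucleolar RNA SNORA73B (0.20). Most of the 12 had PDGF-AA levels below 7.2, close to background, where fold changes are understated. Their differences, 0.20 to 0.34 here, were 0.26 to 0.43 with normexp at an offset of 50 and 0.40 to 0.70 at an offset of 16.

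The 12 genes on the lower side included brighter ones. TNPO3, an importin of splicing factors on chromosome 7 and the smallest p of the named genes in this comparison, read 8.60, 8.69 and 8.56 under PDGF-AA and 8.38, 8.33 and 8.37 with 3G3 (-0.26 ± 0.06, unadjusted p = 0.00036). NEK6, a mitotic kinase on chromosome 9, read 9.20, 9.13 and 9.14 against 8.91, 8.94 and 8.83 (-0.26 ± 0.06). RPA2, a subunit of the single-strand DNA binding complex of replication, read 11.33, 11.31 and 11.25 against 11.08, 11.12 and 10.92 (-0.26 ± 0.07). Control IgG arrays for TNPO3 were 8.60, 8.56 and 8.66 and for NEK6 9.15, 9.11 and 9.11, so in both the antibody group stood apart from both others.

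ITSN1, an endocytic scaffold, read 8.88, 8.69 and 8.72 against 8.53, 8.53 and 8.40 (-0.27 ± 0.07). ITGA5, the alpha chain of the fibronectin receptor, read 7.65, 7.65 and 7.74 against 7.39, 7.58 and 7.45 (-0.21 ± 0.06). ANKFY1, an endosomal effector of RAB5, read 8.96, 9.0 and 9.12 against 8.77, 8.87 and 8.65 (-0.27 ± 0.07). The other 6 were SERPINC1, antithrombin (-0.22), the calcium channel CACNA1S (-0.26), AJAP1 of adherens junctions (-0.23), the olfactory receptor OR4S1 (-0.22), the pseudogene SDHAP3 (-0.28) and the forkhead factor FOXD4 (-0.22). SDHAP3 and FOXD4 have near-identical copies in the genome, so their signals may be shared. With normexp at an offset of 16 the differences of the 12, -0.28 to -0.21 here, were -0.60 to -0.25. All 24 had an adjusted p of 1.

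**Figure D5:**
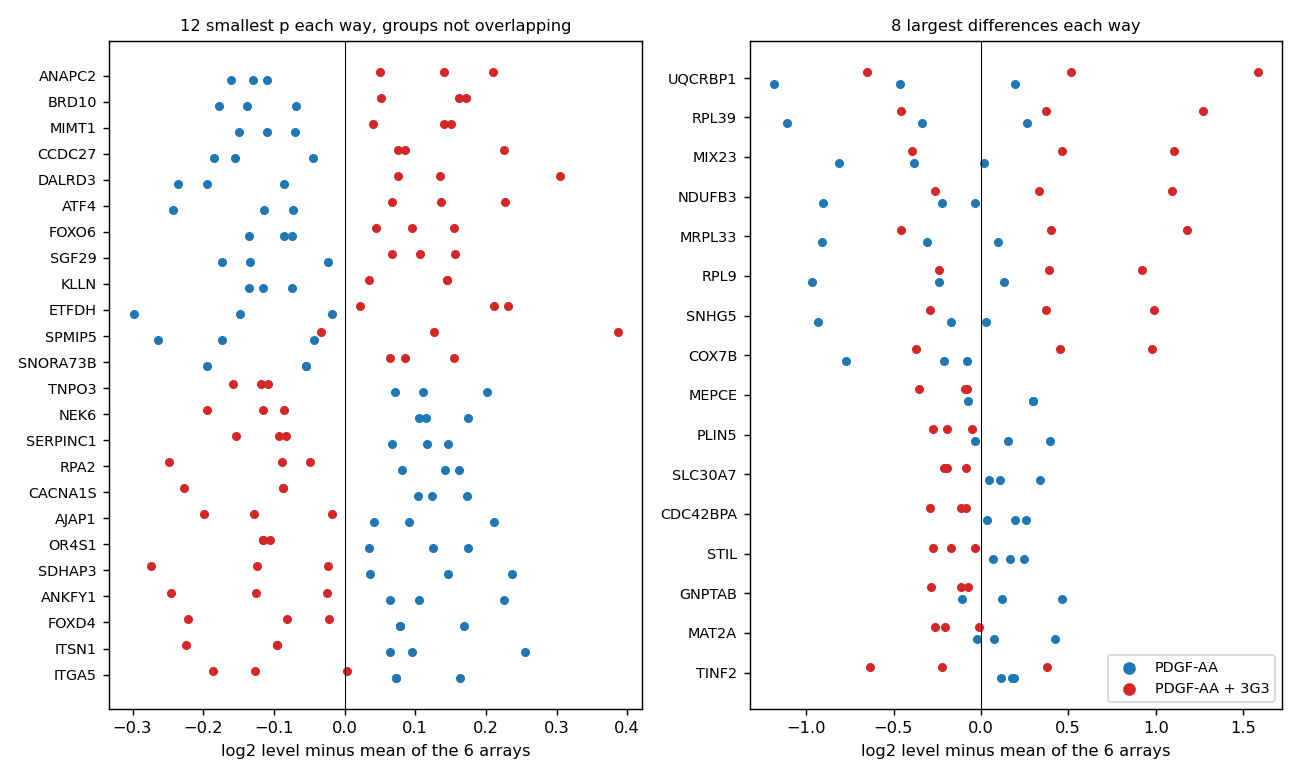
Log2 levels of named genes on the 6 Hec-1A arrays, each minus the gene's mean, PDGF-AA in blue and PDGF-AA + 3G3 in red. Left, the 12 genes of smallest p each way among those whose groups do not overlap, all within about 0.4 of the mean. Right, the 8 largest differences each way, where UQCRBP1, RPL39 and the 6 genes after them spread widely within each group and the groups overlap.

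In RL95-2 the same comparison had 1 probe passed (0.00312%), and 1012 (3.16%) at an unadjusted p below 0.05. That probe was TAGLN (chromosome 11), which encodes transgelin, an actin-binding protein of smooth muscle and of cells responding to TGF-beta. It differed by 0.68 in RL95-2, and in Hec-1A it read 7.87, 7.64 and 7.88 under PDGF-AA and 7.66, 7.74 and 7.59 with 3G3 (-0.13 ± 0.08, 95% interval -0.31 to 0.05). The difference between the lines was -0.81, with an adjusted p of 0.16 in limma's interaction test, and so did not pass. The call in RL95-2 was lost under several alternatives and the interaction passed under others, as the values on processing give. The other TAGLN probes gave differences between the lines of -0.11 and -0.21.

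The interaction test called 0 probes (0%), and 889 (2.77%) had an unadjusted p below 0.05. On the side higher in Hec-1A the smallest p-values were those of GRXCR1 (0.21 in Hec-1A, -0.22 in RL95-2), FOXO6 (0.20 and -0.12), LOC101928728 (0.16 and -0.16), ANAPC2 (0.27 and -0.08) and PPP1R2B (0.13 and -0.13), all near the array median in Hec-1A. On the other side, after TAGLN, came 2 probes of PLAC8 (-0.03 and 0.04 in Hec-1A, 0.43 and 0.55 in RL95-2), ARMC8 (-0.19 and 0.14) and ZNF549 (-0.07 and 0.30). PLAC8 stood at background on every Hec-1A array, between 6.42 and 6.68.

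The last question is where the antibody group stood for genes that set PDGF-AA apart from control IgG in Hec-1A. That comparison had 0 probes passed in limma and 6736 (21%) at an unadjusted p below 0.05, and it shares the PDGF-AA arrays with the 3G3 comparison, so values are set side by side only. Of its 6 smallest p-values on the higher side, GCN1, an activator of the amino acid response, had IgG arrays at 10.41, 10.53 and 10.68, PDGF-AA arrays at 11.06, 11.05 and 10.91 and 3G3 arrays at 10.78, 10.62 and 10.75. Its 3G3 arrays lay below all PDGF-AA arrays (-0.29 ± 0.08, unadjusted p = 0.00351) and overlapped the IgG arrays. ARHGAP1, a GTPase activator for CDC42, differed by 0.32 under PDGF-AA and by -0.15 ± 0.06 on adding 3G3, and its antibody arrays overlapped the PDGF-AA arrays.

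For the other 4, TAGLN (0.57 and -0.13), BRMS1 (0.51 and -0.07), BBLN (0.48 and -0.04) and PPDPF (0.65 and 0.06), the antibody arrays also overlapped the PDGF-AA arrays. On the lower side the pairs of differences, PDGF-AA minus IgG and then 3G3 minus PDGF-AA, were -0.50 and -0.07 for the phospholipase PLCB4, -0.41 and 0.09 for CLCC1, -0.81 and 0.05 for isocitrate dehydrogenase IDH1, -0.72 and 0.08 for the sterol enzyme MSMO1, -0.56 and 0.11 for PNRC2 and -0.77 and 0.35 for IFIT1. PLCB4 read 8.72, 8.40 and 8.47 under IgG, 8.05, 8.04 and 8.0 under PDGF-AA and 7.97, 7.95 and 7.97 with 3G3. It was the 1 probe to pass when the antibody group was set against IgG, at -0.57 (limma, adjusted p = 0.037, 0.00312% called), beside 6565 probes (20.5%) at an unadjusted p below 0.05. Without control IgG replicate 1 PLCB4 no longer passed (-0.47, adjusted p = 0.076), and the unadjusted counts were 2977 for PDGF-AA and 3359 for the antibody group against IgG.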

How the data were processed

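Biotin-labelled cRNA was measured on Illumina bead arrays. The authors deposited a table of signal intensity, not normalized, exported with BeadStudio per the labels, and a table of log2 values. The deposited log2 values differed by at most 0.0438 from a quantile normalization of the log2 intensity. No background was subtracted, which understates fold changes of dim probes.

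The deposited log2 values of all 18 arrays were fitted as 6 group means with limma 3.58.1 in R 4.3.3 (12 residual and 3.61 prior degrees of freedom), two-sided, with Benjamini-Hochberg adjustment at 0.05. Of 47231 probes, 32070 (67.9%) were tested, those above their array's median on 3 or more arrays. One gene symbol was carried by 30113 probes, several by 8 and none by 17110, and 30074 matched the gene table by Entrez ID. Lists used each gene's brightest probe (15360 genes), and the other probes of most genes are not given. Of 632 genes in 30 lists 535 were tested.

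Named were the 12 smallest p each way among probes whose groups do not overlap, since none passed, the 8 largest differences each way, the PDGF family, up to 4 members of smallest p of each list described, the 5 smallest p each way between the lines and the 6 each way for PDGF-AA against IgG. Members of some lists are given by counts alone. Members and lists were chosen with earlier results of these data known. Figures used matplotlib 3.10.9 in Python 3.11.15. The model was also run on simulated data with noise drawn separately for each probe and array. Spread shared between probes was not simulated, so no conclusion is drawn from that run.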

Additional observations from a re-analysis of the deposited data

How the results depend on the processing

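The count of 0 probes passed in Hec-1A was the same under every alternative run. The smallest adjusted p of limma was 0.35, without 3G3 replicate 2. The 1308 of 32070 probes at an unadjusted p below 0.05 became 183 without normalization between arrays and 801 scaled to a common median. With no filter there were 2069 of 47231 probes, and with a filter at the 75th percentile, which tested fewer probes, 309. These 2 counts have other totals and are not directly comparable with 1308. With the leading residual component of each line as a covariate, an alternative chosen after seeing the data, the count was 2552. Leaving out 1 array gave 1055 to 1933. The share of higher differences among them, 40.7%, was 91.3% without normalization, 29.8% with the 75th percentile filter and 51.8% without 3G3 replicate 3. Arrays with the same replicate number did not deviate together (r of -0.09, -0.48 and 0.03), so the numbers do not pair them, and the replicate block gave 1038 and 0.

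The 1 probe passed in RL95-2 became 0 without normalization, with only the groups compared, with only the cell line and with the replicate block, and 3 with the covariate and at a threshold of 0.25. Leaving out 1 array gave 0 to 2. The interaction's 0 became 1, TAGLN, scaled to a common median (adjusted p = 0.012), with array weights (0.034), with the covariate (0.0042), at a threshold of 0.25 and without RL95-2 3G3 replicate 2 (0.02), so leaving out 1 array gave 0 to 1. The cause was not tested. Without control IgG replicate 1, for comparisons with IgG an alternative chosen after seeing the data, 0 probes passed for 3G3 against IgG in place of 1, with 3359 at an unadjusted p below 0.05, and 0 passed for PDGF-AA against IgG (limma), with 2977.

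Named values near 0 changed sign. Without normalization PDGFB was 0.02 and PDGFRA 0.01. Leaving out 1 array gave -0.03 to 0 for PDGFB, -0.06 to 0.02 for PDGFRA, -0.13 to 0.01 for PDGFC, -0.05 to 0.20 for IDH1, -0.02 to 0.26 for MSMO1, -0.05 to 0.13 for PPDPF, and -0.08 to 0.01 and -0.01 to 0.07 for the PLAC8 probes. Among the probes checked singly, no other difference of 3G3 minus PDGF-AA in Hec-1A changed sign. Not checked singly were, among others, OAS1, IFIH1, the brighter ATF4 probes and the other probes of PDGFA, PDGFB and PDGFD. Of 74 named differences of at least 0.2 in size, leaving out 1 Hec-1A array moved 34 by over 1.5 times. List medians changed sign under some alternative in 20 lists, whose medians lay between -0.029 and 0.041. The array headers name no slide, so a slide block was not run, and the endothelial list had no value under the 75th percentile filter. Probes near the array median are limited by background, and 3 arrays per group limit the rest.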
